A study of Mus musculus with 4 samples.

Results

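The genes described here are 10 transcription factors of naive and stem-like CD8 T cells: Tcf7, Lef1, Bach2, Satb1, Foxo1, Foxp1, Id3, Bcl6, Myb and Klf3. Every probe on the array whose RefSeq accession belongs to one of these genes was taken, which gave 18 probes for 10 of the 22911 genes named on the array. RNA came from CD8 T cell subsets sorted by CD44, an adhesion receptor of antigen-experienced cells, and CD62L, a homing receptor. Spleens and lymph nodes of C57BL/6 mice aged 1 to 3 months, left untreated, supplied the cells. All groups carried the PD-1-/- genotype, so they lack the coinhibitory receptor PD-1, and no PD-1-sufficient group was analysed here. P1 was CD44low CD62Lhigh, the naive phenotype, and P2 was CD44high CD62Lhigh, the central memory phenotype. P3 was CD44 high CD62Llow, the effector and effector memory phenotype, and P4 was low for both markers (CD44low CD62Llow), the population named in the title of the study. How many mice were sorted for each subset, and whether they were pooled, was not found in the labels.

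A naive CD8 T cell is kept quiescent and able to recirculate by a network of DNA-binding proteins that is taken down as the cell becomes an effector. TCF-1 (encoded by Tcf7) and LEF-1 bind DNA through an HMG box and act with beta-catenin or with Groucho/TLE corepressors. FOXO1 drives genes for homing and survival, such as Ccr7, Il7r and Klf2, and is put out of the nucleus by AKT when the T cell receptor and cytokines signal. FOXP1 enforces quiescence, BACH2 competes with AP-1 factors at effector genes, and SATB1 folds chromatin in thymocytes and T cells. ID3, BCL6 and MYB are linked to the memory-forming and self-renewing cells of an immune response.

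Each subset was hybridised to 1 array, so no difference below has a replicate check, no test between subsets was possible, and every comparison is by size alone. A level is the log2 processed signal of a probe minus the 75th percentile of its array, and a difference is between the levels of the same probe on 2 arrays. The pooled log2 SD between repeated spots of a probe was 0.077, which gives a difference a 95% half-width of 0.21 from spot noise alone. This half-width was 0.18 for probes at levels of 0 or more, 0.29 from -3 to 0 and 0.61 below -3, and it leaves out differences between mice, sorts and labellings. Each of the 18 probes was well above background on each of the 4 arrays. Where 4 levels are listed they are in the order P1, P2, P3 and P4. Array position on the slide and subset cannot be told apart.

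The CD44 labels were set against the Cd44 transcript, which stood at -1.80, 2.26, 2.11 and -1.24, high in both CD44high subsets. Pdcd1, the disrupted gene, gave levels of -3.30, -3.06, 1.76 and 1.70, and since its probe was not set against the deleted part this checks neither genotype nor labels. All 9 T cell markers were above background in every subset, and their median difference from P1 was -0.21 in P2, -0.30 in P3 and -0.14 in P4. P3 also carried transcripts of antigen-presenting cells. For the 8 genes of class II presentation and type 2 dendritic cells, the signal summed in multiples of the 75th percentile was 2.10, 5.44, 213 and 7.08. For 9 macrophage and monocyte genes it was 2.49, 3.28, 28.1 and 2.94, and for 9 B cell genes 5.36, 4.598, 8.78 and 4.64. Of the B cell genes 8 of 9 were above background in P3 (all but Pax5), against 2, 3 and 4 in P1, P2 and P4. In bulk RNA of this kind, fewer cells of a type and less RNA per cell cannot be told apart.

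Across the 10 genes the main split was between P3 and the other subsets. By the brightest probe of each gene, P3 was the lowest subset for 7 of 10 genes and P1 the highest for 6; over all probes P3 was lowest in 14 of 18. The genes showed 3 patterns. Tcf7, Lef1, Bach2, Satb1, Foxo1 and Foxp1 were highest in P1 and lowest in P3, Id3 and Myb were highest in P2, and Bcl6 and Klf3 followed neither order.

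**Figure D1:**
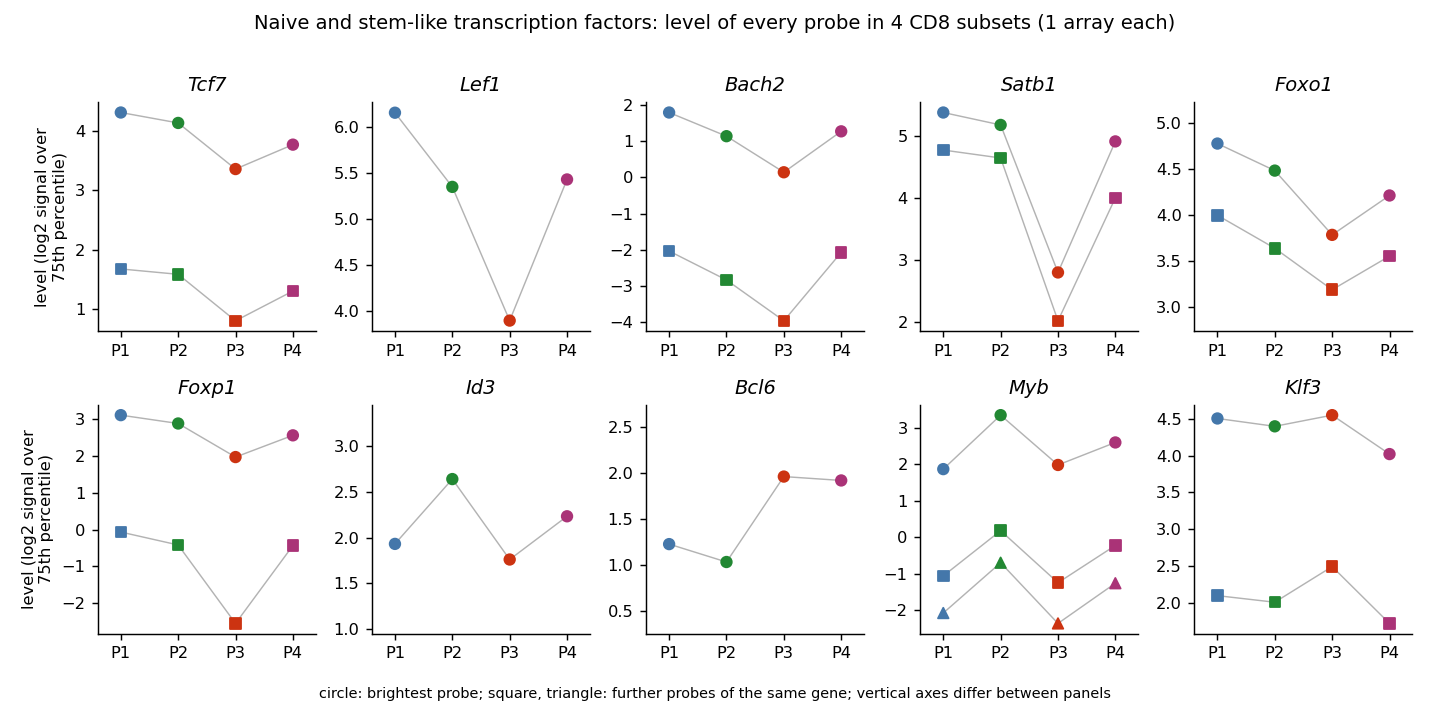
Level of each of the 18 probes (log2 signal over the array's 75th percentile, vertical axis, its range differing between panels) in subsets P1 to P4 (horizontal axis), with 1 panel per gene and 1 array per subset; circles are the brightest probe of a gene, squares and triangles further probes. Satb1 and Lef1 lie furthest down in P3, all 3 Myb probes peak in P2, and Bcl6 is high in P3 and P4.

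Tcf7 and Lef1, the HMG box pair, differed in how far they were lower in P3. The brighter Tcf7 probe had levels of 4.31, 4.13, 3.36 and 3.77, and the dimmer one 1.68, 1.58, 0.80 and 1.30. P1 and P2 lay within spot noise of each other on both probes, while P4 and then P3 were lower. P3 minus P1 was -0.95 and -0.87 on the 2 probes, a 1.94-fold and 1.83-fold lower signal, so Tcf7 missed 2-fold in every pair. Lef1, read by 1 probe, had levels of 6.16, 5.35, 3.89 and 5.43. P2 and P4 were alike within spot noise (P4 minus P2 0.08) and stood between a high P1 and a low P3. Lef1 was 4.82-fold lower in P3 than in P1 (-2.27) and 1.75-fold lower in P2 (-0.81).

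Satb1, the chromatin organiser, had the largest difference of the 10 genes. Its brightest probe gave levels of 5.38, 5.17, 2.80 and 4.91, and its other probe, assigned to another RefSeq transcript, gave 4.77, 4.64, 2.02 and 3.998. P3 stood far below the other subsets, which lay within 0.47 of one another on the brightest probe and 0.77 on the other. P3 minus P1 was -2.58 and -2.75, or 5.98-fold and 6.75-fold lower, and P4 minus P3 was 2.11 and 1.98. Only 97 of the 14088 genes measured in P3 and P1 had a lower difference than Satb1, against 147 for Lef1 and 352 for Bach2.

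Bach2, a repressor of effector genes, had levels of 1.79, 1.14, 0.14 and 1.27 on its brighter probe. The dimmer probe gave -2.03, -2.83, -3.96 and -2.07. Both probes put P1 highest and P3 lowest, with P3 minus P1 at -1.65 (3.13-fold lower) and -1.92. They differed for P4: the brighter probe placed it -0.52 from P1 and beside P2, and the dimmer one -0.04 from P1, within a spot noise of 0.29 at that level. B cells also express Bach2. In P3, 5 of 8 measured B cell markers exceeded P1 by at least 2-fold, beside 12.4% of all measured genes. The part of B cells in the Bach2 levels was not tested.

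The forkhead genes were lower in P3 by smaller amounts, with an exception. Foxo1 stood at 4.78, 4.48, 3.78 and 4.21 on its brighter probe and at 3.996, 3.64, 3.18 and 3.55 on the other. The order P1, P2, P4, P3 was shared by both probes, and P3 minus P1 was -0.996 and -0.81, with the first of these at 1.99-fold just short of 2-fold. Foxp1 on its brighter probe had levels of 3.12, 2.89, 1.98 and 2.57, with P3 2.21-fold lower than P1 (-1.14). Its dimmer probe, assigned to another RefSeq transcript, had levels of -0.07, -0.42, -2.56 and -0.43, with P3 5.62-fold lower than P1 (-2.49). The P3 minus P1 differences of these probes lay 1.35 apart, against a half-width of 0.41 for a difference of differences at levels from -3 to 0. Of the 42 comparisons of probes within a gene (7 genes with several probes, 6 pairs), 41 agreed in sign. The median spread was 0.18, and in 14 the spread exceeded 0.30, the half-width for a difference of differences over all levels. At lower levels this half-width was wider, 0.41 from -3 to 0 and 0.86 below -3, and some of the 14 lay within it. The exception in sign was Myb in P3 minus P1, where its 3 probes ran from -0.29 to 0.11.

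The sequences before the start sites of the 4 genes that were at least 2-fold lower in P3 than in P1 are shown because these genes were lowest in the same subset. Each is the 250 bases before the most upstream RefSeq start in build GRCm38.p6, 5′ to 3′ on the strand of the gene, from the RefSeq promoter table; RefSeq lists 4 starts for Lef1, 1 for Bach2, 5 for Satb1 and 3 for Foxp1. Lef1 is at chr3:131110047-131110296 on the + strand, Bach2 at chr4:32417185-32417434 on the + strand, Satb1 at chr17:51833291-51833540 on the - strand and Foxp1 at chr6:99520994-99521243 on the - strand. Capitals mark matches to the TCF/LEF letters CTTTGA or CTTTGT on either strand.
Lef1: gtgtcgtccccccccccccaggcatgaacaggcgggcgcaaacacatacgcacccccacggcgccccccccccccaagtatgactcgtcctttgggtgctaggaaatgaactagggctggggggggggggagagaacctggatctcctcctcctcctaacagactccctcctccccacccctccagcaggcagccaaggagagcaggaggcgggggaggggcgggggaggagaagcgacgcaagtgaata
Bach2: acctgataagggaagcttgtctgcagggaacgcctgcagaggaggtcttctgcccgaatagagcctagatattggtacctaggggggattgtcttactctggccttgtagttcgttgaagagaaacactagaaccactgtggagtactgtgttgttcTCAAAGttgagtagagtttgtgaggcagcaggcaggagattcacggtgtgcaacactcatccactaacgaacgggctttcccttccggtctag
Satb1: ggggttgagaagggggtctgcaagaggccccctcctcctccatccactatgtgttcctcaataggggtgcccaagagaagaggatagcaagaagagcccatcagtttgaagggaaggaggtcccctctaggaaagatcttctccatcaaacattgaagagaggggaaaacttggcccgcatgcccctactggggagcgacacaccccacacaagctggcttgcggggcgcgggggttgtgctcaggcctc
Foxp1: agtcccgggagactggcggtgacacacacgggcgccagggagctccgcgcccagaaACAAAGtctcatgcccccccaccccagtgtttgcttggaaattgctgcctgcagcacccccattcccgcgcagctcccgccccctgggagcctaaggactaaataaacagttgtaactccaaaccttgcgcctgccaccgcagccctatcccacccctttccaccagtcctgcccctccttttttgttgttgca

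The TCF/LEF letters occurred in 2 of these 4 windows, Bach2 at 93 bases and Foxp1 at 194 bases before the start, against 27.8% of 27025 genes with a window of the same length. The forkhead letters GTAAACA, searched on both strands, were in 0 of 4 windows and in 3.06% of all, and the AP-1 and BACH letters TGACTCA were in 0 of 4 and in 4.43% of all. KLF letters CCACCC were in 2 of 4 (Lef1 and Foxp1) and in 27.6% of all, and E-box letters CANNTG in 2 of 4 (the same genes) and in 66.1% of all. MYB letters AACNG were in 4 of 4 and in 74.2% of all, and BCL6 letters TTCCTNGAA in 0 of 4 and in 1.33% of all. Every motif was searched on both strands, and overlaps between motifs were allowed. Such matches describe letters in these windows and show no binding. The GC content was 66.4% for Lef1, 50.4% for Bach2, 58.0% for Satb1 and 60.8% for Foxp1, against a median of 52% over all genes.

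Id3 and Myb were highest in the central memory phenotype. Id3, an inhibitor of E proteins, had levels of 1.93, 2.64, 1.76 and 2.23 on its single probe. P1 and P3 were within spot noise of each other, P4 was 0.30 above P1 and P2 0.71 above P1. Myb, a factor of stem-like memory cells and of dividing progenitors, had levels of 1.87, 3.35, 1.99 and 2.60 on its brightest probe. Its other probes gave -1.06, 0.18, -1.24 and -0.22, and -2.07, -0.70, -2.36 and -1.26. All 3 probes put P2 highest and P4 second, with P1 and P3 within spot noise of each other. P2 was 2.79-fold, 2.36-fold and 2.60-fold above P1 on these probes, and P4 1.66-fold, 1.78-fold and 1.76-fold. The brightest Myb probe lay in a locally bright area of the P1 array, the array on which Myb was lowest on this probe; the other 2 probes lay in no such area.

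Bcl6 and Klf3 went other ways. Bcl6, a repressor that opposes Blimp-1 (encoded by Prdm1) and is also used by germinal centre B cells and some dendritic cells, had levels of 1.23, 1.03, 1.96 and 1.92. Both CD62Llow subsets were alike (P4 minus P3 -0.04) and both CD62Lhigh subsets were lower. P3 minus P1 was 0.74 and P4 minus P1 0.69, or 1.67-fold and 1.62-fold, short of 2-fold. The summed signal of class II and type 2 dendritic cell genes was 2.10, 5.44, 213 and 7.08. For 5 regulatory T cell markers it was 1.06, 1.96, 8.51 and 6.52. For 3 CD4 T cell markers it was 0.78, 0.91, 1.81 and 0.96, with Cd40lg not above background on any array. The part of such cells in the Bcl6 level was not tested. Klf3, a repressor that works with CtBP, had levels of 4.50, 4.40, 4.55 and 4.02 on its brighter probe and 2.09, 2.004, 2.49 and 1.72 on the other. P4 was the lowest subset on both probes, by -0.48 and -0.38 against P1.

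P3 was set against P1 to compare the effector memory with the naive phenotype. Of 10 genes, 4 were at least 2-fold lower in P3, namely Lef1, Bach2, Satb1 and Foxp1, and 0 were higher by 2-fold. Over all 14088 measured genes, 7.11% were lower and 12.4% higher by that much, 19.5% in either direction. The median over the 10 genes was -0.97, beside -0.11 over all measured genes. The T cell markers were lower by a median of 0.30 in P3, and relative to these markers the median of the 10 genes was -0.68, Foxp1 at -0.84 no longer reached 2-fold and Bcl6 at 1.03 did. The part of RNA from other cells in the remaining difference was not tested.

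P4 minus P1 compares the CD44low subsets by CD62L. Of the 10 genes, 0 were at least 2-fold lower and 0 at least 2-fold higher, beside 1.75% and 5.46% (7.21% in either direction) of 13160 genes. The median was -0.50, beside -0.06 over all measured genes. Lef1 (-0.73), Foxo1 (-0.57), Foxp1 (-0.55), Tcf7 (-0.54), Bach2 (-0.52), Klf3 (-0.48) and Satb1 (-0.47) were lower by more than spot noise on their brightest probe, and Myb (0.73), Bcl6 (0.69) and Id3 (0.30) were higher. In the same pair all 5 regulatory T cell markers (median 2.66) and all 5 measured of 6 NK cell markers (median 3.06, Ncr1 not above background on any array) exceeded P1 by at least 2-fold, and their part in these differences was not tested. By the brightest probes, P4 was the highest subset for 0 of 10 genes and the lowest for 1, Klf3.

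**Figure D2:**
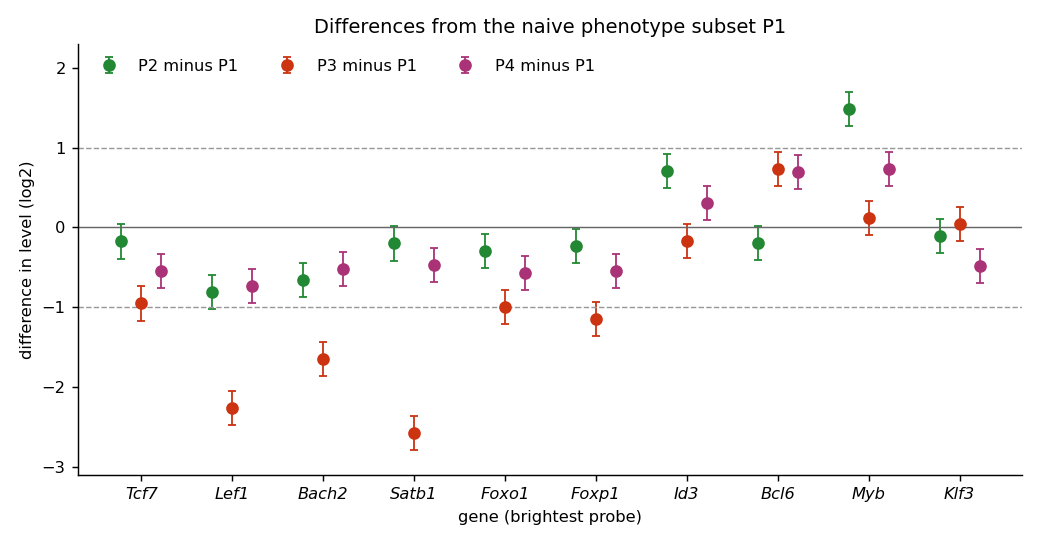
Difference in level from P1 (log2, vertical axis) of the brightest probe of each gene (horizontal axis) for P2, P3 and P4, 1 array each; bars are the 95% half-width of 0.21 from spot noise alone and dashed lines mark 2-fold. P3 passes the lower line for Lef1, Bach2, Satb1 and Foxp1, P2 passes the upper line for Myb, and no P4 point passes either line.

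P4 was set against P3 to compare the CD62Llow subsets. Lef1 (1.54), Bach2 (1.13) and Satb1 (2.11) exceeded P3 by at least 2-fold in P4 and 0 genes were lower by that much, beside 4.15% and 8.91% (13.1% in either direction) of 13988 genes. The median was 0.53, beside 0.04 over all genes. Satb1 was 4.33-fold higher in P4 than in P3, Lef1 2.91-fold and Bach2 2.19-fold, while Tcf7 (0.41) and Foxo1 (0.43) differed less. Foxp1, at 0.59 on its brighter probe, passed 2-fold at 1.36 with the mean over its probes, and Myb went from 0.62 to 1.02 without its probe in a locally bright area; either setting gave 4 genes in place of 3. The antigen-presenting cell signal given above was far higher in P3 than in P4. T cell markers, with a median of 0.12 in P4 minus P3, differed much less, and the part of other cells was not tested.

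P2 was set against P1 to compare the central memory with the naive phenotype. Myb (1.48) was at least 2-fold higher and 0 genes were at least 2-fold lower, beside 4.75% and 2.53% (7.29% in either direction) of 12956 genes. The median was -0.20, beside -0.06 over all genes. Lef1 (-0.81), Bach2 (-0.65), Foxo1 (-0.30) and Foxp1 (-0.23) were lower and Id3 (0.71) higher by more than the half-width of 0.21. Satb1 and Bcl6, both at -0.20, lay within it but beyond the 0.18 for levels of 0 or more, and Tcf7 (-0.18) and Klf3 (-0.11) lay within both. NK cell markers were higher in P2 too, 5 of 5 measured with a median of 4.25, and their part was not tested.

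P3 against P2 compared the CD44high subsets. Lef1 (-1.46), Satb1 (-2.38) and Myb (-1.37) were at least 2-fold lower in P3 and 0 genes at least 2-fold higher, beside 5.69% and 10.5% (16.2% in either direction) of 14012 genes. The median was -0.90, beside -0.05. Bach2 at -0.995 was just short, at 1.99-fold. With the mean over the probes of a gene, Bach2 and Foxp1 joined them, making 5. P4 against P2 gave 0 genes past 2-fold in either direction, beside 4.85% higher and 3.43% lower (8.27% in either direction) of 13126 genes, with a median of -0.30 beside 0.01. Bcl6 differed by 0.89 there. Myb differed by -0.75 on its brightest probe, which lay in a locally bright area of the P1 array, and by -0.41 and -0.56 on the others. These pairs share arrays, so their values are not independent of one another.

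**Figure D3:**
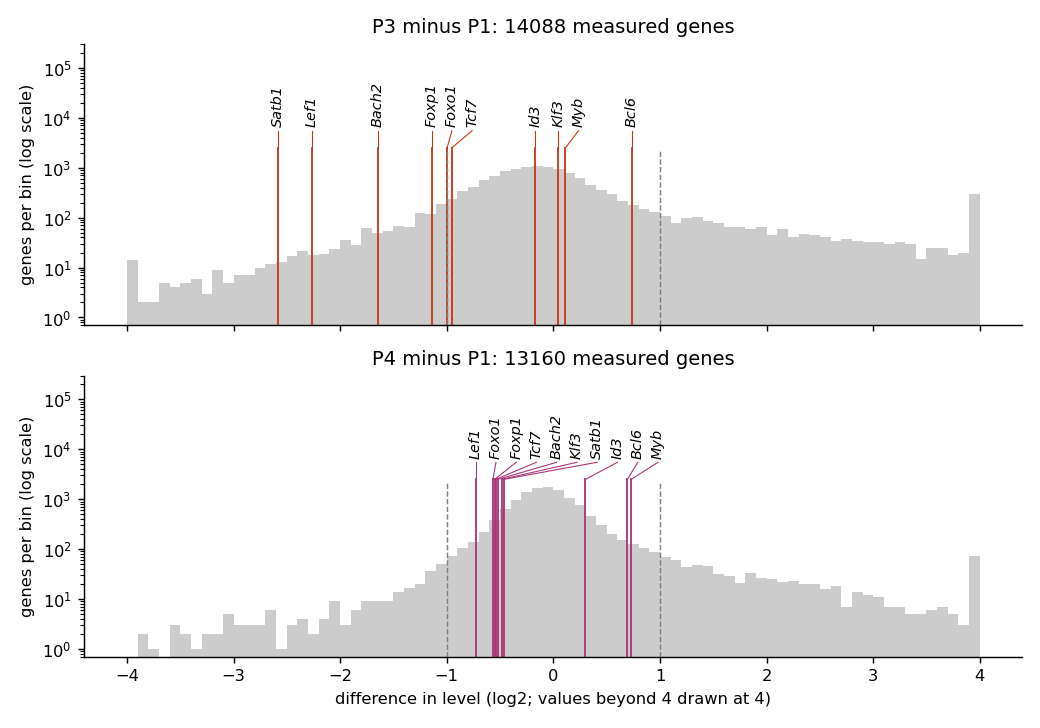
Number of measured genes (vertical axis, log scale, bins of the log2 difference on the horizontal axis) in P3 minus P1 and in P4 minus P1, with the 10 genes marked at their own differences and dashed lines at 2-fold. In P3 minus P1 Satb1 and Lef1 lie in the lower tail, while in P4 minus P1 all 10 genes lie between the dashed lines.

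For the 6 genes that were highest in P1 and lowest in P3, the position of the other subsets on the way from P1 to P3 was expressed in percent of the P3 minus P1 difference of the same probe. P4 lay at 18.1% for Satb1, 31.5% for Bach2, 32.1% for Lef1, 48.2% for Foxp1, 56.8% for Tcf7 and 56.9% for Foxo1 on the brightest probes. P2 lay at 7.77% for Satb1, 18.5% for Tcf7, 19.9% for Foxp1, 29.6% for Foxo1, 35.7% for Lef1 and 39.6% for Bach2. On these probes P4 was further from P1 than P2 was for Satb1, Tcf7, Foxp1 and Foxo1, and nearer for Lef1 and Bach2. For Lef1 and the brighter Bach2 probe the gap between P2 and P4 was within spot noise, as it was on the dimmer probes of Foxo1 and Foxp1. The dimmer Foxp1 probe placed P2 at 14.2% and P4 at 14.8%. The dimmer Bach2 probe placed them at 41.5% and 1.98%, with P4 minus P2 at 0.76 beyond a half-width of 0.61, so the position depended on the probe for these genes.

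The design crosses CD44 with CD62L, so the CD62L contrast can be read within CD44low cells (P4 minus P1) and within CD44high cells (P3 minus P2). For Satb1 it was -0.47 within CD44low and -2.38 within CD44high, a difference of -1.91 against a spot noise of 0.30. For Lef1 the values were -0.73 and -1.46. For Bach2 they were -0.52 and -0.995 on the brighter probe and -0.04 and -1.13 on the dimmer. Foxp1 had -0.55 and -0.91 on its brighter probe and -0.37 and -2.14 on the dimmer. The contrasts differed by -0.36 and -1.77 on these Foxp1 probes, so the size depended on the probe. Foxo1 had -0.57 and -0.70 and Tcf7 -0.54 and -0.78, with the contrasts of these brighter probes within spot noise of each other. On the dimmer Tcf7 probe they were -0.37 and -0.78, a difference of -0.41 that was beyond it. Bcl6 had 0.69 and 0.93. Id3 and Myb had opposite signs, at 0.30 and -0.88 for Id3 and 0.73 and -1.37 for Myb. Klf3 had opposite signs too, at -0.48 and 0.15 on its brighter probe and -0.38 and 0.48 on the dimmer. The 0.15 was within spot noise. With 1 array per subset the difference between the contrasts was not tested.

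**Figure D4:**
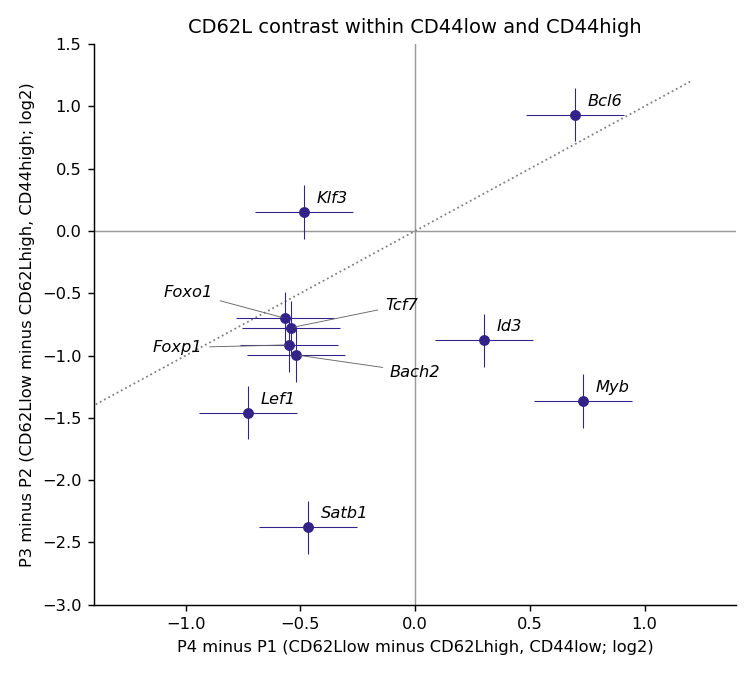
P3 minus P2 (vertical axis, log2) against P4 minus P1 (horizontal axis, log2) for the brightest probe of each gene; bars are the 95% half-width of 0.21 from spot noise alone and the dotted line marks equal contrasts. Myb and Satb1 lie furthest below the line, Id3 and Myb lie at positive x and negative y, and Foxo1, with -0.57 and -0.70, lies close to the line.

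Other genes of these pathways were read from lists of known members. Of 13 TCF/LEF cofactors and beta-catenin pathway genes, all measured, Tle1 (-2.63), Bcl9 (-2.37) and Bcl9l (-1.34) were at least 2-fold lower in P3 than in P1 and 0 higher, with a list median of -0.66, beside 7.11% lower and 12.4% higher over all genes. Tle1 encodes a Groucho corepressor of TCF/LEF factors, and Bcl9 and Bcl9l encode beta-catenin coactivators. Tle1 had levels of 0.64, -0.82, -1.99 and -0.03, the same order of subsets as Lef1. Bcl9 followed that order too, with -0.24, -1.54, -2.61 and -0.79. The related genes Tle5 (5.85, 5.92, 5.77 and 5.59) and Tle3 (3.42, 3.53, 3.63 and 3.26) had similar levels in all subsets. Axin2, a target of beta-catenin signalling, had its lowest level in P4, with -0.74, -0.93, -1.002 and -1.46. In P4 minus P1, 0 of 13 passed 2-fold and the list median was -0.36.

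Among 23 relatives of the 10 factors, 17 were measured in P3 or P1. Id1 (-1.53), Klf2 (-1.01) and Klf7 (-1.396) were at least 2-fold lower in P3 than in P1, and Foxp3 (1.93), Mybl2 (1.74), Klf10 (1.23) and Klf12 were higher by 2-fold or more, with a median of -0.46. That is 3 lower and 4 higher of 17, beside the same 7.11% and 12.4% of all genes. Klf12 was not well above background in P1, so its 1.29 is a lower bound, and the Mybl2 probe lay in a locally bright area of the P1 array. In P4 minus P1, Foxp3 (1.004) was the single relative past 2-fold. Klf2, a homing factor under FOXO1, had levels of 6.80, 6.34, 5.79 and 5.98. Id2, the family relative of Id3, had levels of 4.52, 3.39, 5.31 and 5.12, with its low in P2 where Id3 was highest. The levels did not mirror each other in P4, where Id2 stood at 5.12 and Id3 was second highest at 2.23. Tcf7l1 and Tcf7l2, the other TCF genes, were above background on every array, at -3.85 to -2.98 apart from Tcf7l1 in P3 (-4.35). Their P3 minus P1 differences were -0.50 and -0.46.

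Of 16 binding partners and corepressors, all measured in P3 or P1, Maff (-1.67) was at least 2-fold lower in P3 than in P1, and Tcf4 (3.64) and Ctbp2 (a bound of 2.19) were at least 2-fold higher, with a median of -0.11. These counts of 1 and 2 of 16 were near the shares over all genes, 7.11% and 12.4%. Tcf4, the E protein of plasmacytoid dendritic cells and B cells, had levels of -2.003, -3.20, 1.64 and -1.53. It is also 1 of 5 plasmacytoid dendritic cell markers, which did not move together. In P3 minus P1, Tcf4, Spib and Ptprs were at least 2-fold higher, Siglech (-1.25) was lower and Bst2 was at 0.04. The summed signal of these 5 markers was 66.5, 73.5, 52.5 and 68.2, lowest in P3. The part of such cells in the Tcf4 level was not tested. Tcf3, another E protein partner of Id3, had 1.82, 1.83, 1.82 and 1.68. Maff, a small MAF partner of Bach2, had 0.81, 1.23, -0.86 and -0.23, low in both CD62Llow subsets, and at -1.04 it was the single partner past 2-fold in P4 minus P1.

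Surface and homing genes of naive cells were lower in P3 in larger numbers. Of 16, 11 were at least 2-fold lower in P3 than in P1 and Cxcr5 (3.49) was higher, with a list median of -1.77, beside 7.11% lower and 12.4% higher over all genes. Ccr7 (-1.89), S1pr1 (-1.23) and the interleukin 6 receptor gene Il6ra (-2.14) were among the lower ones, and Igfbp4 (-5.74) had the lowest value. In P4 minus P1 Il6ra (-1.02), Dapl1 (-1.43) and Igfbp4 (-1.16) were at least 2-fold lower and Cxcr5 (1.49) higher, with a median of -0.62. Il7r, the interleukin 7 receptor gene, stood at 6.03, 6.21, 5.14 and 5.07, low in both CD62Llow subsets. The effector and activation factors were higher instead: 9 of 14 exceeded P1 by at least 2-fold in P3 (median 2.24), 7 in P4 (median 1.0) and 6 in P2 (median 0.35), beside 12.4%, 5.46% and 4.75% of all genes. Prdm1, which encodes Blimp-1, had levels of -1.16, 0.05, 2.46 and 1.49, and Bhlhe40 had -1.30, 0.93, 3.99 and 2.81. Prdm1 was thus 2.65 higher (log2) in P4 than in P1, while Tcf7 differed by -0.54 and Bcl6 by 0.69 in the same pair.

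**Figure D5:**
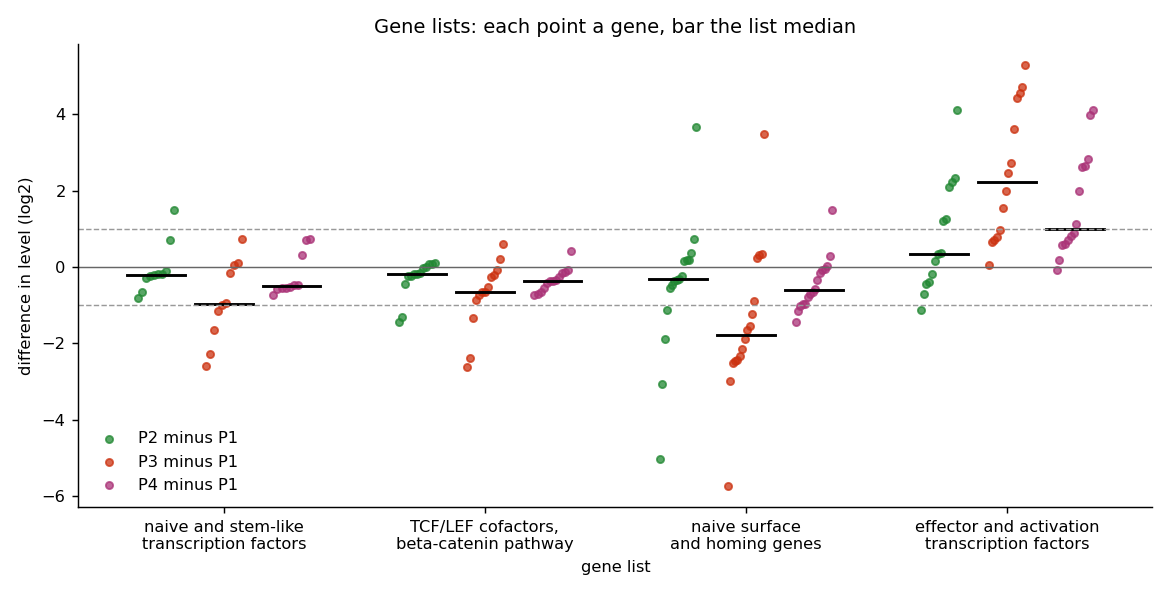
Difference in level from P1 (log2, vertical axis) of each measured gene of 4 lists (horizontal axis) in P2, P3 and P4; each point is a gene, black bars are list medians and dashed lines mark 2-fold. The medians in P3 are -0.97, -0.66, -1.77 and 2.24 from left to right, and those in P4 are -0.50, -0.36, -0.62 and 1.0.

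Genes were ranked by the root mean square distance to the median centred profile of the 10 factors over the 4 arrays. That profile was 0.44, 0.21, -0.53 and 0.12, and it pools genes of the 3 patterns above. Of 2173 other genes above background on every array and ranging at least 2-fold, the nearest 5 were Jun, Snhg8, Blm, Zfp937 and Gm30752, at distances of 0.063 to 0.070. The median profile itself ranged just under 2-fold, so genes with that range or a smaller one were not candidates. Jun, which encodes an AP-1 subunit, had a centred profile of 0.42, 0.12, -0.61 and 0.07. The likeness rests on 4 arrays and describes these arrays only.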

How the data were processed

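Per the labels' protocols, cDNA was made from total RNA with random primers, and Cy3-labelled cRNA with an Agilent labelling kit; each subset had 1 array of 1 colour. Per the file headers, the deposited intensity values were extracted with Agilent Feature Extraction 11.0.1.1, which subtracts background to make the processed signal; arrays were not yet normalized to one another. The table of values deposited by the authors holds log2 values of 26188 probes that share 1 distribution across arrays (median 8.85 in each), read as quantile normalized and not centred; the tool behind it was not found in the labels.

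Each array held 59305 non-control spots for 56605 probes. The 75th percentile of signal was 481, 480, 799 and 453 (P1 to P4), and 27829 to 30812 probes were well above background. Outlier spots (122 to 152 per array) were left out and 0 were saturated. RefSeq accessions named 32994 probes (58.3%) through a gene table of GRCm38.p6. The probe with the highest mean level stood for a gene, and a pair took in genes whose probe was well above background on 1 or both arrays. Values not above background were raised to the lowest signal above it, and give bounds. Areas were called locally bright around a spot if, of its neighbours within 32 position units, at least 2 (4 in P3) were 2-fold brighter than on every other array, a number that under 1% of spots would reach at the array's own rate.

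The 10 genes and all lists were chosen with earlier results of these data known. Named were all 10 genes, list members past 2-fold or needed beside a gene, and the 5 nearest profiles. Tle2, Tle3, Tle4, Tle5, Axin2, Il7r, Tcf3, Tcf7l1 and Tcf7l2 were named as relatives or contrasts after their values were seen. Calls at 2-fold were checked on simulated data. Alternatives were other scalings, background correction, filters, probe rules and a 4-fold threshold. Python 3.11.15 with numpy 2.4.6, pandas 2.3.3 and scipy 1.17.1 was used.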

Additional observations from a re-analysis of the deposited data

Results flagged for a closer look

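Id3 and Myb had CD62L contrasts of opposite direction in CD44low and CD44high cells on every probe, each beyond spot noise. For Id3, P4 minus P1 was 0.30 and P3 minus P2 was -0.88 on the log2 scale. For Myb the same values were 0.73 and -1.37 on the brightest probe. The CD44 contrast turned in the same way: P2 minus P1 was 0.71 for Id3 and 1.48 for Myb, and P3 minus P4 was -0.47 and -0.62. With 1 array per subset these differences were not tested. The brightest Myb probe lay in a locally bright area of the P1 array; on its second probe, in no such area, P2 minus P1 was 1.24.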

How the results depend on the processing

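No paired analysis was possible because each subset was 1 array. Over the 10 alternative settings that give a difference, 593 of 600 gene differences kept their sign, 28 moved by more than the spot noise of 0.21, and 0 that reached 2-fold changed sign. Of 192 medians and counts over the 10 genes, 184 stayed within that spread or within 1.5 times the count. Part of this agreement was fixed in advance. The filter settings and the setting with outlier spots kept returned the main values, since all 18 probes were above background and none was left out as an outlier. Leaving out locally bright areas could change Myb alone among the 10 genes. With a 4-fold threshold, the 1 gene higher in P2 than in P1 became 0, the 3 higher in P4 than in P3 became 1 (Satb1), the 4 lower in P3 than in P1 became 2 (Lef1 and Satb1), and the 3 lower in P3 than in P2 became 1 (Satb1). With the mean over the probes of a gene, the 3 lower in P3 than in P2 became 5, Bach2 and Foxp1 being added. Relative to the T cell marker genes, a choice made after seeing the data, the genes past 2-fold upward went from 0 to 1 (Bcl6) in both P3 minus P1 and P3 minus P2, and the P3 minus P1 median of the 10 genes went from -0.97 to -0.68. That scaling moved the median of all genes in P3 minus P1 from -0.11 to 0.19, and the genes called in that pair from 1744 higher and 1002 lower to 2198 and 570. Those counts were 1157 and 607 with normexp on median signals, 1045 and 499 with the authors' values, and 964 and 774 for genes detected in both P1 and P3. Satb1 in P3 minus P1 ran from -2.67 to -2.28 and Lef1 from -2.27 to -1.97 over all settings, and Tcf7 from -0.95 to -0.66. Depth on arrays is signal over background: all 18 probes were above it, and the dimmer Bach2 probe at -3.96 in P3 lay where spot noise is 0.61.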
